A study of Mus musculus with 16 samples.

Results

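Chemokines are small secreted proteins that draw cells along a gradient by binding G protein-coupled receptors on the cells that respond. They are named by the spacing of their first cysteines, as CXC, CC and CX3C, and mouse tumours, their stroma and the macrophages among them can all make them. The 9 chemokine genes described here, Cxcl1, Cxcl5, Cxcl10, Cxcl12, Ccl2, Ccl5, Ccl7, Ccl20 and Cx3cl1, were chosen by name, as a list, with results of these arrays already known. Their 12 probe sets, found by the array's gene symbol, are all of the probe sets given to these symbols among 22626 probe sets that are not controls and 12393 genes with a symbol of their own. Which measured values put a gene on the list is not recorded. All levels and contrasts of these 9 genes therefore count as used in choosing them, and they are given as a description with a standard error (SE) and no p-value. The genes tested with a p-value are those of the other chemokines, their receptors and the pathways around them. Those lists too were chosen with earlier results of these data known, and their p-values do not correct for that choice.

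The study put Nfib, the transcription factor nuclear factor I/B, and L-myc, whose gene is Mycl (Mycl1 in the labels), into cell lines grown from mouse small cell lung cancers, and asked how expression changed. Each of the 2 lines, 3583T3 and 3151T4, came from a tumour digested with collagenase and trypsin and plated in medium with serum, so the cultures may hold other cells of the tumour. Control cells were not transfected. Nfib cells carried MSCV-Nfib-PGK-Neo, a retroviral vector with FLAG-tagged mouse Nfib, and were selected with G418. Mycl1 cells carried MSCV-L-myc-PGK-Puro and were selected with puromycin, and Nfib+Mycl1 cells carried both vectors. The vector and its drug selection therefore cannot be told apart from the transgene, since control cells had neither. There were 8 groups of line and vector with 2 arrays in each, 16 in all, and no label says that the arrays of a group came from separate cultures, so the spread between them may be technical. Levels are log2 signals after GCRMA, an array normalization, and a difference of 1 is a 2-fold change. The arrays' number limits the precision, and a level of one probe set says nothing against the level of another.

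Several facts about the cultures bear on every result below. The Mycl probe set 1422087_at, which checks the vector, was between 9.08 and 11.05 on 7 of the 8 arrays labelled Mycl1 or Nfib+Mycl1 and between 2.12 and 2.55 on 7 of the 8 others. The array labelled 3583T3 Nfib replicate 2 read 10.22 and the array labelled 3583T3 Nfib+Mycl1 replicate 2 read 2.67, each against its label. Another Mycl probe set, 1422088_at, read 1.80 to 2.52 on all arrays. The Mycl probe set 1434777_at read 5.93 to 6.81 in control cells and 4.97 to 6.02 with Mycl1 alone. In 3151T4 it read 3.00 to 3.92 with an Nfib vector and 5.81 to 6.64 without. In 3583T3 it read 4.95 to 7.30 with an Nfib vector and 4.97 to 6.81 without. Over all probe sets tested, the array labelled 3583T3 Nfib replicate 2 correlated best with 3583T3 Nfib+Mycl1 replicate 1 (r = 0.990), and the array labelled 3583T3 Nfib+Mycl1 replicate 2 with 3583T3 Nfib replicate 1 (r = 0.989). They are kept as labelled, and some results that use them are given also without the 2 arrays. Where no second value is given, the 2 arrays are still in a difference if 3583T3 cells with Nfib or both vectors enter. This holds for comparisons over both lines and between lines too. All groups share an estimate of the spread. The 2 arrays therefore also enter the SE, p-value and calls of the other comparisons, such as those with Mycl1 alone and those within 3151T4. Over both lines, none of the 4 Nfib probe sets separated the arrays labelled with the Nfib vector (1427680_a_at, 9.82 to 10.45 with it and 10.31 to 10.76 without). In 3151T4, 2 of them were lower with an Nfib vector. There 1448288_at read 8.55 to 9.04 with it and 9.30 to 9.66 without, and 1416293_at 3.73 to 4.12 and 4.30 to 4.83. None was higher on all arrays with the vector, so these arrays give no check that it was expressed. Of 12 neuroendocrine markers of this tumour type, 10 were on the array, and most were dim. Only Ncam1 and Uchl1 were above log2 4 on all arrays, 3 (Dlk1, Insm1 and Scg2) were above it on some, and 5 (Chga, Chgb, Neurod1, Scg3 and Syp) on none.

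The promoters of the chemokine genes are shown first, because NF-kB and interferon signalling are known to act on several of them and genes of both pathways are tested below. RefSeq's table for the build GRCm38.p6 gave promoters for 5 of the 9 genes, and the matches were searched in the 250 bases before the start on both strands. Capitals mark matches to the NF-kB motif GGGNNNTTCC or the interferon stimulated response element GAAANNGAAA, as read on either strand. The sequences run 5′ to 3′ on the strand of the gene and end at the base before its start. The 3 genes shown are those with a match.
Cxcl1, chr5:90890995-90891244, plus strand: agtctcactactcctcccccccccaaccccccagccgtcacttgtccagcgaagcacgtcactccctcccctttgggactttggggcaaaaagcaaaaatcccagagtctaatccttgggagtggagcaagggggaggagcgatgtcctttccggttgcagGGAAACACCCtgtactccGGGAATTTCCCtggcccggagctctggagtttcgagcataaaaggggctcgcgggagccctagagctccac
Cxcl10, chr5:92348890-92349139, minus strand: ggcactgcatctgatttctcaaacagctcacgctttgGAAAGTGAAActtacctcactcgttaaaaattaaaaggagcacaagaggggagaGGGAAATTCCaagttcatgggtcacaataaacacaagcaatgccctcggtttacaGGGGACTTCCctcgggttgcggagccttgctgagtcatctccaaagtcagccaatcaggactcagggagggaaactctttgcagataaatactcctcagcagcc
Ccl20, chr1:83116516-83116765, plus strand: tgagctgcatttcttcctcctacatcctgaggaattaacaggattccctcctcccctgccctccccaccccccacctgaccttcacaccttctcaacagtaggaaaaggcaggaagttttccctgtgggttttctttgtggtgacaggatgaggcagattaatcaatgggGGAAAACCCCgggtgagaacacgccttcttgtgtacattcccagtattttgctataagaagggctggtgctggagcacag

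Cxcl1 held 3 NF-kB matches, of which the one at -71 to -62 and the one at -70 to -61 overlap on opposite strands, and the third lay at -89 to -80. Cxcl10 held NF-kB matches at -159 to -150 and -104 to -95 and an interferon stimulated response element at -213 to -204. Ccl20 held 1 NF-kB match, on the minus strand at -80 to -71. Over 32851 promoters of the same length, 4.65% held the NF-kB motif and 2.98% the interferon element. The windows of Cxcl12 (chr6:117168285-117168534) and Cx3cl1 (chr8:94771930-94772179) held neither, and none of the 5 held the E-box CACGTG, which 6.02% of promoters held, or the NFI motif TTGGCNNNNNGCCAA, which 0.0365% held. A match is a run of letters and not a measured binding site.

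Cxcl1, Cxcl5 and Cxcl10 lie on chromosome 5, with Cxcl10 further from the other two than they are from each other, and Ccl2 and Ccl7 lie close together on chromosome 11. Of the 12 probe sets, 11 were above log2 4 on at least 2 arrays and entered the fit. The third probe set of Cx3cl1, 1421610_at, read between 2.13 and 2.57 on every array and did not. Cxcl5 and Ccl5 were above log2 4 only on arrays with an Nfib vector and entered the fit through them.

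**Figure D1:**
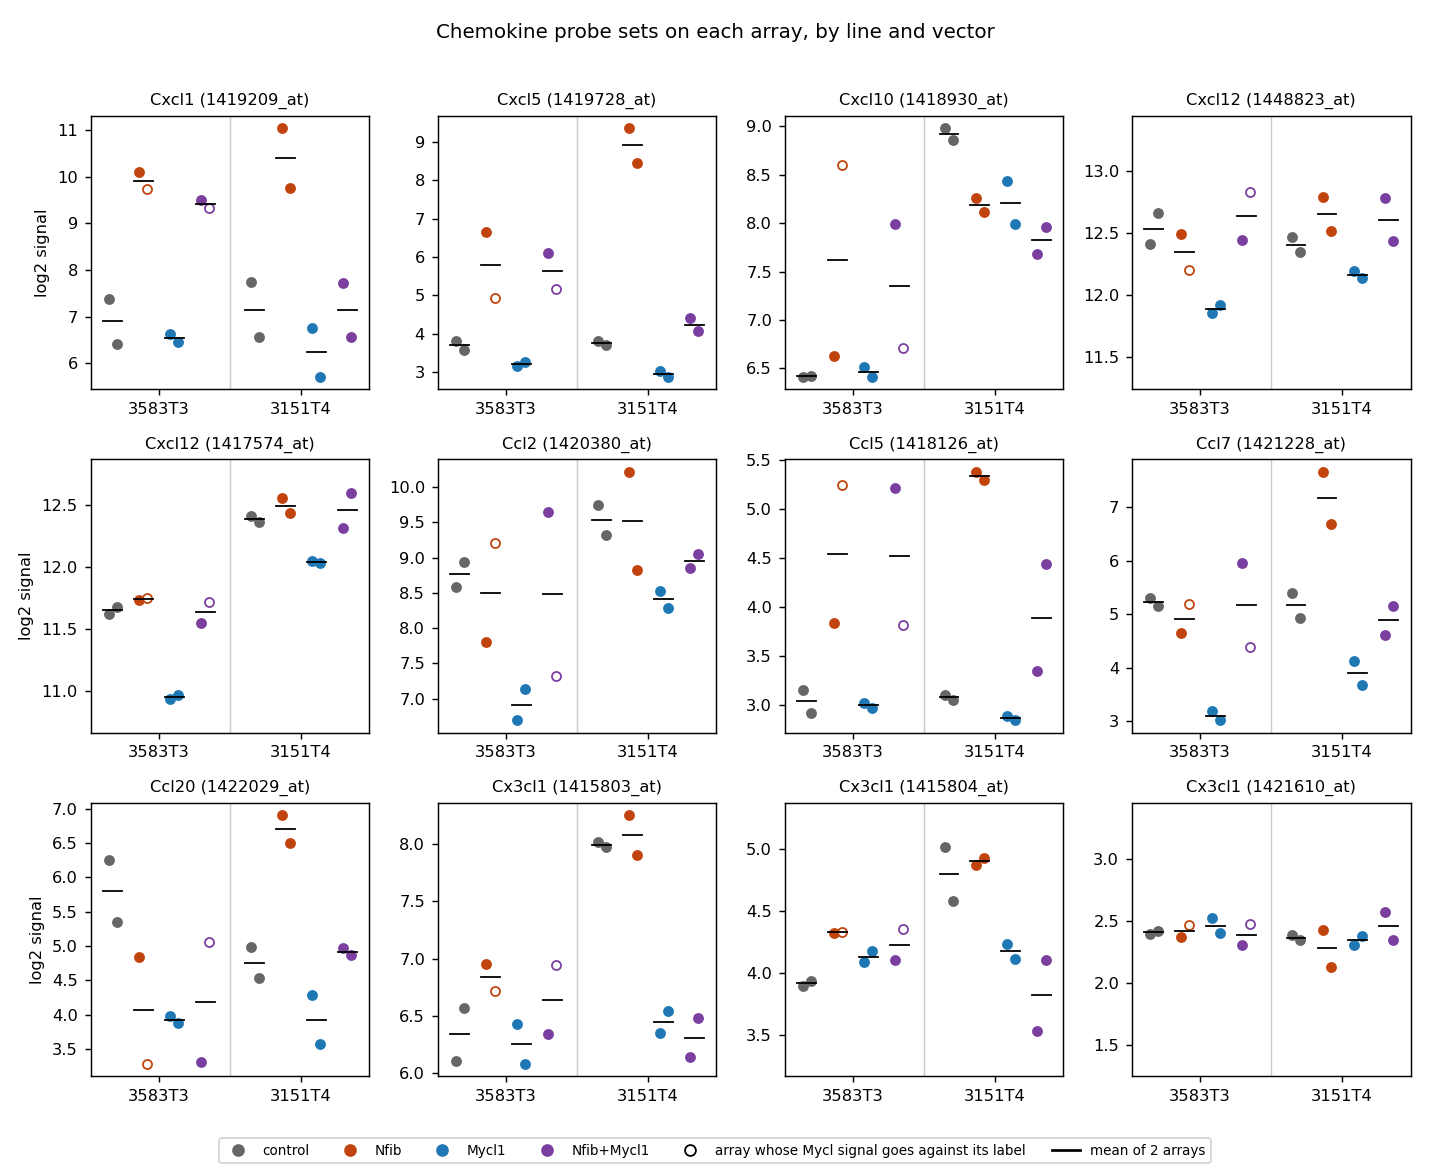
Log2 signal (vertical axis) of each of the 12 chemokine probe sets on the 16 arrays, by line (horizontal axis) and vector (colour). Points are arrays, short lines are means of 2 arrays, and open circles are the 2 arrays whose Mycl signal goes against their label. Cxcl1 stands at 9.73 or higher on every array with the Nfib vector alone, and Cxcl12 is lowest within each line with the Mycl1 vector.

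Cxcl1 and Cxcl5, which attract neutrophils through the receptor Cxcr2, had the highest levels with the Nfib vector. Cxcl1 (1419209_at, chr5:90891245-90893121) was 7.38 and 6.42 in control 3583T3 cells, 10.10 and 9.73 with Nfib, 6.63 and 6.46 with Mycl1, and 9.50 and 9.33 with both vectors. In 3151T4 it was 7.74 and 6.57 in control cells, 11.04 and 9.77 with Nfib, 6.76 and 5.71 with Mycl1, and 7.73 and 6.57 with both. The arrays with Nfib alone lay above all control arrays in both lines. The arrays with both vectors lay above the control arrays in 3583T3 and among them in 3151T4. Over both lines the difference from control was 3.13 ± 0.52 (SE, 4 arrays against 4) with Nfib, an 8.77-fold higher level, -0.63 ± 0.52 with Mycl1 and 1.26 ± 0.52 with both vectors. Within 3583T3 the difference with both vectors was 2.51 ± 0.51, and within 3151T4 it was 0.00 ± 0.51. The difference between these 2 responses, 3151T4 minus 3583T3, was -2.52 ± 0.72.

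Cxcl5 (1419728_at, chr5:90759298-90761625) was 3.82 and 3.59 in control 3583T3 cells, 6.64 and 4.92 with Nfib, 3.15 and 3.25 with Mycl1, and 6.10 and 5.16 with both. In 3151T4 it was 3.80 and 3.72 in control cells, 9.35 and 8.46 with Nfib, 3.03 and 2.87 with Mycl1, and 4.40 and 4.07 with both. In each line the order was Nfib, both vectors, control and Mycl1, and the only neighbours in it whose arrays overlapped were Nfib and both vectors in 3583T3. With Nfib the level was 4.21-fold higher than control in 3583T3 (2.08 ± 0.45) and 35.4-fold higher in 3151T4 (5.15 ± 0.45). Without the 2 doubted arrays the value in 3583T3 was 7.64-fold (2.93 ± 0.32). The response in 3151T4 exceeded that in 3583T3 by 3.07 ± 0.64, or by 2.21 ± 0.41 without them. The control level of Cxcl5 lay below log2 4, near the floor of the array, in both lines.

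Ccl5, which attracts T cells and monocytes, was also higher with Nfib. Ccl5 (1418126_at, chr11:83525778-83530518) was 3.16 and 2.92 in control 3583T3 cells, 3.84 and 5.25 with Nfib, 3.02 and 2.97 with Mycl1, and 5.22 and 3.82 with both. The 3151T4 values were 3.11 and 3.06 in control cells, 5.38 and 5.29 with Nfib, 2.89 and 2.84 with Mycl1, and 3.34 and 4.44 with both. Every array with the Nfib vector, alone or with Mycl1, lay above every control and Mycl1 array, with the lowest of them at 3.34. The difference from control over both lines was 1.88 ± 0.37 with Nfib and 1.15 ± 0.37 with both vectors. Within 3583T3 the difference with Nfib was 1.50 ± 0.46, and 0.80 ± 0.34 without the array labelled Nfib replicate 2 and the array labelled Nfib+Mycl1 replicate 2. With both vectors it was 1.48 ± 0.46, and 2.18 ± 0.34 without them.

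Cxcl10, an interferon-induced ligand of Cxcr3 that attracts T cells, differed more between the control cells of the lines than the other 8 genes did. Cxcl10 (1418930_at, chr5:92346638-92348889) was 6.41 and 6.42 in control 3583T3 cells, 6.63 and 8.60 with Nfib, 6.52 and 6.41 with Mycl1, and 7.995 and 6.71 with both. Those of 3151T4 were 8.98 and 8.86 in control cells, 8.26 and 8.11 with Nfib, 8.43 and 7.99 with Mycl1, and 7.68 and 7.96 with both. Control 3151T4 cells stood above every other group, and all of their vector groups lay below them. In 3583T3 the highest values were on the array labelled Nfib replicate 2 and on Nfib+Mycl1 replicate 1, both with a Mycl signal above 10. Over both lines no vector differed from control by more than 0.33 ± 0.45 in size, and the difference with Nfib turned from 0.23 ± 0.45 to -0.26 ± 0.38 without the 2 arrays. Within 3583T3 the difference with Nfib was 1.20 ± 0.49, and 0.21 ± 0.24 without them. Within 3583T3 the difference with both vectors was 0.94 ± 0.49, and 1.58 ± 0.24 without the 2 arrays. Within 3151T4 it was -1.10 ± 0.49.

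Ccl2 and Ccl7, which attract monocytes through Ccr2, were lower with the Mycl1 vector alone. Ccl2 (1420380_at, chr11:82035577-82037452) was 8.59 and 8.95 in control 3583T3 cells, 7.81 and 9.20 with Nfib, 6.69 and 7.14 with Mycl1, and 9.65 and 7.32 with both. In 3151T4 it was 9.75 and 9.32 in control cells, 10.22 and 8.83 with Nfib, 8.53 and 8.28 with Mycl1, and 8.85 and 9.05 with both. The Mycl1 arrays were the lowest of their line in both lines and did not overlap any other group of it. The difference from control with Mycl1 was -1.49 ± 0.43 over both lines, a level 2.81-fold lower. With Nfib it was -0.13 ± 0.43, and the arrays with Nfib spread by more than 1 log2 unit in each line. With both vectors in 3583T3 it was -0.28 ± 0.62, and it turned to 0.89 ± 0.42 without the 2 doubted arrays.

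Ccl7 (1421228_at, chr11:82045712-82047525) was 5.31 and 5.15 in control 3583T3 cells, 4.64 and 5.20 with Nfib, 3.19 and 3.02 with Mycl1, and 5.95 and 4.40 with both. The 3151T4 values were 5.41 and 4.93 in control cells, 7.66 and 6.69 with Nfib, 4.13 and 3.68 with Mycl1, and 4.61 and 5.16 with both. The Mycl1 arrays were again the lowest of each line with no overlap, and the Nfib arrays were the highest in 3151T4 but not in 3583T3. With Mycl1 the difference from control over both lines was -1.70 ± 0.46. With Nfib it was -0.31 ± 0.43 in 3583T3 and 2.01 ± 0.43 in 3151T4, and these responses differed by 2.32 ± 0.62. With both vectors in 3583T3 it was -0.06 ± 0.43, and 0.72 ± 0.38 without the 2 doubted arrays.

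Ccl20, the ligand of Ccr6 on dendritic cells and lymphocytes, was lower with Nfib in 3583T3 and higher with it in 3151T4. Ccl20 (1422029_at, chr1:83116766-83119167) was 6.26 and 5.35 in control 3583T3 cells, 4.85 and 3.29 with Nfib, 3.98 and 3.88 with Mycl1, and 3.31 and 5.06 with both. Those of 3151T4 were 4.99 and 4.53 in control cells, 6.91 and 6.50 with Nfib, 4.28 and 3.57 with Mycl1, and 4.97 and 4.87 with both. All vector arrays of 3583T3 lay below its control arrays, while in 3151T4 the Nfib arrays lay above all others. The difference from control with Nfib was -1.74 ± 0.54 in 3583T3 and 1.95 ± 0.54 in 3151T4, which leaves a difference between the responses of 3.68 ± 0.76, or 2.90 ± 0.49 without the 2 arrays. The value with Nfib in 3583T3 was then -0.96 ± 0.38, from the array at 4.85 alone. With both vectors in 3583T3 it was -1.62 ± 0.54, and -2.50 ± 0.38 without them.

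Cxcl12, the ligand of Cxcr4 and Ackr3 made by many stromal cells, was lower with Mycl1 alone by both of its probe sets. By 1417574_at (gene at chr6:117168535-117181368) it was 11.62 and 11.68 in control 3583T3 cells, 11.74 and 11.75 with Nfib, 10.94 and 10.97 with Mycl1, and 11.55 and 11.72 with both. In 3151T4 it was 12.40 and 12.36 in control cells, 12.55 and 12.43 with Nfib, 12.04 and 12.03 with Mycl1, and 12.31 and 12.59 with both. The Mycl1 arrays were the lowest of each line and overlapped no other group of it. By 1448823_at the Mycl1 arrays read 11.85 and 11.92 in 3583T3, where the other groups read 12.20 to 12.83, and 12.19 and 12.14 in 3151T4, where the others read 12.34 to 12.79. The difference from control over both lines was -0.52 ± 0.09 by 1417574_at and -0.44 ± 0.13 by 1448823_at. Cells with both vectors stood above Mycl1 cells by 0.55 ± 0.09 and 0.60 ± 0.13, and above control cells by 0.03 ± 0.09 and 0.15 ± 0.13. The probe sets disagreed on the lines, since control 3151T4 minus control 3583T3 was 0.73 ± 0.12 with 1417574_at and -0.13 ± 0.17 with 1448823_at.

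Cx3cl1, the membrane-bound chemokine that binds Cx3cr1 on monocytes, had lower values with the Mycl1 vector in 3151T4. By 1415803_at (gene at chr8:94772180-94782427) it was 6.11 and 6.57 in control 3583T3 cells, 6.95 and 6.72 with Nfib, 6.43 and 6.08 with Mycl1, and 6.34 and 6.94 with both. The 3151T4 values were 8.02 and 7.97 in control cells, 8.25 and 7.91 with Nfib, 6.35 and 6.55 with Mycl1, and 6.14 and 6.48 with both. The 4 arrays of 3151T4 with a Mycl1 vector read 6.55 or lower and the other 4 read 7.91 or higher. In 3583T3 the arrays with Mycl1 and with both vectors overlapped the control arrays. The difference from control in 3151T4 was -1.54 ± 0.25 with Mycl1 and -1.68 ± 0.25 with both, against -0.08 ± 0.25 and 0.30 ± 0.25 in 3583T3. The response to both vectors differed between the lines by -1.99 ± 0.36, and by -1.29 ± 0.32 with the dimmer probe set 1415804_at. That probe set read 3.90 to 4.36 in 3583T3, and in 3151T4 it read 4.58 to 5.01 without and 3.53 to 4.24 with a Mycl1 vector.

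**Figure D2:**
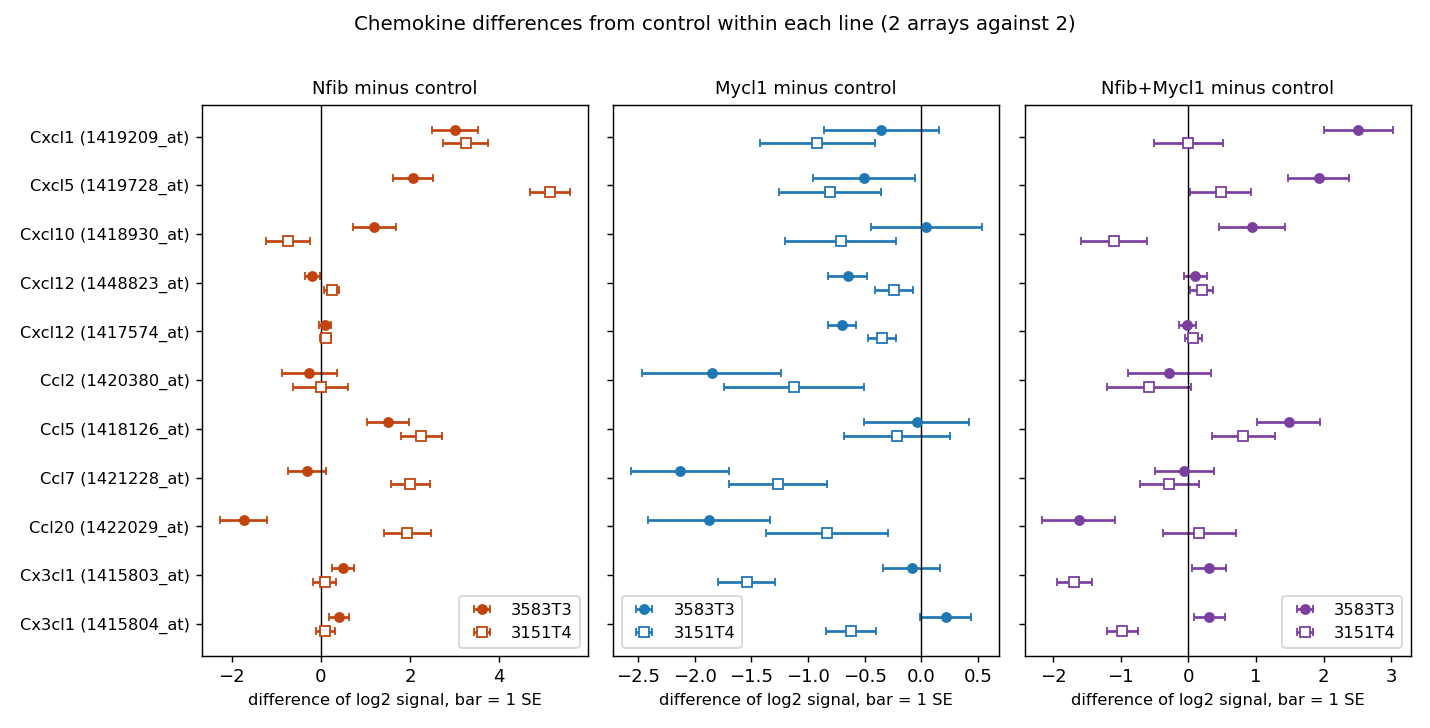
Difference of log2 signal from control (horizontal axis) for each chemokine probe set that passed the filter, in 3583T3 (filled circles) and 3151T4 (open squares), with 1 panel per vector and bars of 1 SE. With Nfib, Cxcl5 lies at 2.08 in 3583T3 and 5.15 in 3151T4, and Ccl20 lies at -1.74 and 1.95.

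The counts below set the 11 probe sets beside all 15799 tested, and since the genes were chosen with these contrasts known, nothing is read from them. Counts of the 11, here and in the closing sections, hold Cxcl5 and Ccl5. These passed the filter through arrays with an Nfib vector only, so their rise with Nfib was fixed by it. A probe set is called at an adjusted p under 0.05 in the limma fit over all probe sets tested. With Nfib over both lines 3 were called, all higher (Cxcl1, Cxcl5 and Ccl5), and 8.46% of all probe sets were called. With Mycl1 4 were called, all lower (Ccl2, Ccl7 and both of Cxcl12), beside 9.96%. With both vectors 1 was called, higher (Ccl5), beside 29%, and against Mycl1 cells 2 were called, both of Cxcl12 and higher, beside 2.96%. Of the 9 probe sets other than those of Cxcl5 and Ccl5, 1 was called with Nfib, higher, and 4 with Mycl1, lower. With both vectors 0 of the 9 were called, and against Mycl1 cells 2, higher. The median difference of the 11 was 0.26, -0.63, -0.08 and 0.63 in these 4 comparisons, and that of all probe sets tested was 0.02, 0.04, 0.04 and -0.02. The vectors share their control arrays, so these comparisons are not independent. Without the 2 arrays the counts were 3 higher, 4 lower, 1 higher with 1 lower (Cx3cl1, 1415803_at), and 2 higher, beside 7.89%, 17.5%, 32.7% and 2.2% of all.

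Within 3583T3, 2 were called with Nfib beside 8.23%, 2 with Mycl1 beside 2.39% and 2 with both vectors beside 11.1%. Within 3151T4, 5 were called with Nfib beside 11.8%, 1 with Mycl1 beside 15.1% and 2 with both beside 28.1%. For the difference between the lines' responses, 3 were called with Nfib beside 5.61%, 0 with Mycl1 beside 1.43% and 2 with both beside 4.94%. Between the control cells of the lines, 4 were called, all higher in 3151T4 (Cxcl10, Cxcl12 by 1417574_at and both of Cx3cl1), beside 39.7%. Without the 2 doubted arrays the counts in 3583T3 were 2 with Nfib, 5 with Mycl1 and 5 with both, beside 5.54%, 9.1% and 17.5%. In 3151T4, whose arrays stay but whose spread is estimated anew, they were 6, 5 and 4, beside 15.5%, 21.2% and 32.1%. For the line responses they were 3, 1 and 4, beside 6.01%, 2.9% and 6.91%, and between control cells 5, beside 43%.

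Most genes of a macrophage marker list were lower with every vector, and several chemokines are known to be made by macrophages. The mean log2 signal of 15 macrophage markers was 6.91 and 7.69 on the control arrays of 3583T3, 5.71 and 5.78 on those of 3151T4, and 2.77 to 3.13 on all vector arrays. Lysozyme, Lyz2, was 10.36 or higher on control arrays and 5.28 or lower on vector arrays, and complement C1qb was 9.35 or higher and 3.42 or lower. These had the widest ranges of the list. Cd14 went the other way in 3151T4, at 7.66 and 7.52 with Nfib against 7.32 and 6.76 in control cells. Mrc1 in 3583T3 was 6.34 and 4.15 with both vectors against 6.77 and 7.92 in control cells. Of the 12 markers that entered the fit, 7 were above log2 4 on control arrays only, so their fall was fixed by the filter. Of the other 5, 4 fell with Nfib, 4 with Mycl1 and 3 with both vectors, and none passed for both vectors against Mycl1 alone (limma, adjusted p). Lyz2 was above log2 4 on no array with an Nfib vector, Cd68 on none with Nfib alone and Csf1r on none with a Mycl1 vector. These falls are therefore not free of the filter either. Over all probe sets tested, 8.46%, 9.96%, 29% and 2.96% were called in these comparisons. Fewer cells of a type and less RNA per cell cannot be told apart in these bulk cultures.

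The mean of the fibroblast markers lay above control with Nfib alone in both lines, and with both vectors in 3583T3 but not in 3151T4. The mean of 10 fibroblast markers was 7.22 to 7.67 in control 3583T3 cells, 9.15 to 9.43 with Nfib, 7.72 to 7.89 with Mycl1 and 9.06 to 9.30 with both. Those of 3151T4 were 8.85 to 8.87, 10.51 to 10.62, 7.78 to 7.83 and 8.81 to 9.15 in the same order. Over both lines 6 of the 10 rose with Nfib and none fell, or 4 of 10 without the 2 arrays, and 2 fell with Mycl1. With both vectors 1 of the 10 rose. Over all probe sets tested, 8.46% were called with Nfib, 9.96% with Mycl1 and 29% with both vectors. Of the 10, Col1a1 had the narrowest range over all arrays, 11.67 to 12.73, and Lum the widest, 1.64 to 10.73. Lymphocyte and neutrophil markers (10 genes) had means of 2.28 to 2.79, endothelial markers (8) of 2.80 to 3.96, lung epithelium markers (8) of 3.60 to 4.03 and neuroendocrine markers (10) of 4.48 to 4.86. The part of these cell type markers in the chemokine differences was not tested.

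**Figure D3:**
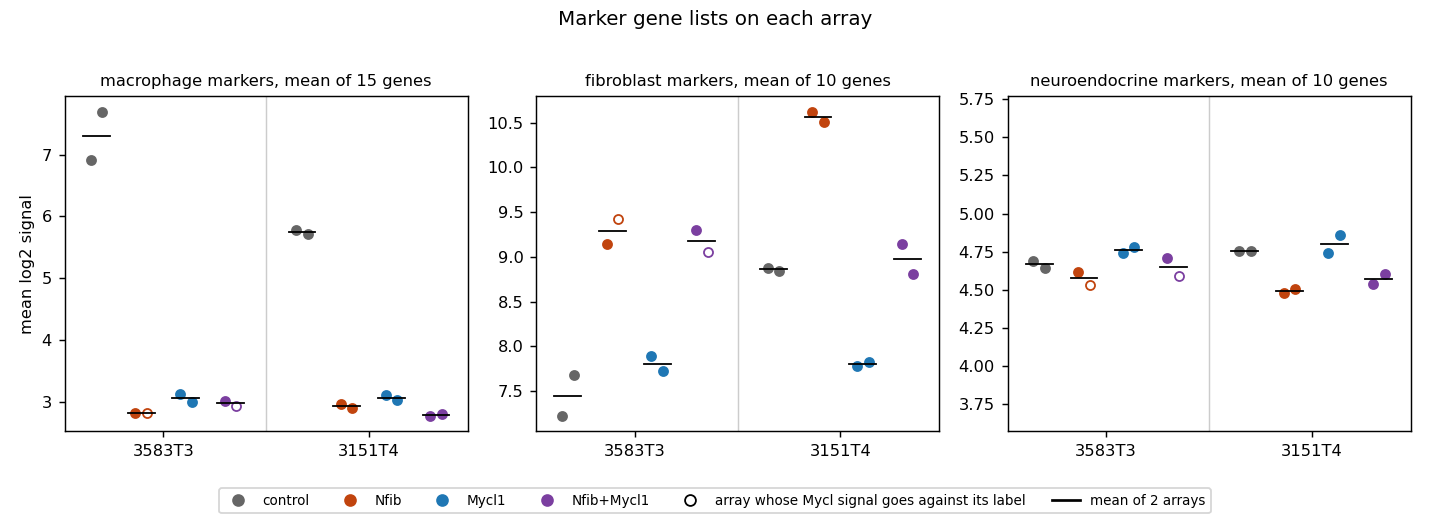
Mean log2 signal (vertical axis) of the macrophage, fibroblast and neuroendocrine marker lists on each of the 16 arrays, by line (horizontal axis) and vector (colour). Points are arrays, short lines are means of 2 arrays and open circles are the 2 arrays that go against their label. The macrophage list lies at 5.71 or higher on control arrays and at 3.13 or lower on all others.

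Among the other chemokines, 28 were listed, 25 were on the array and 12 entered the fit. Of these, Ccl6 was above log2 4 only on control arrays, Ccl3 only on those of 3583T3 and Ppbp only on the Nfib arrays of 3151T4, so they are described without a test. Of the other 9, 1 rose with Nfib and 2 fell, with a median of -0.07 beside 0.02 for all probe sets, of which 8.46% were called. Cxcl15, the lung chemokine lungkine, was 2.86 and 3.02 in control 3583T3 cells, 7.39 and 6.22 with Nfib, 3.36 and 2.84 with Mycl1, and 5.87 and 6.31 with both. In 3151T4 it was 9.96 and 10.24, 12.44 and 12.68, 9.18 and 8.95, and 10.30 and 10.44 in the same order. Over both lines it rose by 3.16 ± 0.42 on the log2 scale with Nfib (limma, adjusted p = 0.00031) and by 1.71 ± 0.42 with both vectors (limma, adjusted p = 0.00915). The control and Mycl1 arrays of 3583T3 lay below log2 4, near the floor, so that line gives no measured fold, and within 3151T4 the difference with Nfib was 2.47 ± 0.32 (limma, adjusted p = 0.000114). It was also higher with both vectors than with Mycl1 alone, by 2.15 ± 0.42 (limma, adjusted p = 0.0143).

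The 2 chemokines that fell with Nfib were Ccl9 (-2.01 ± 0.40), a CC chemokine of macrophages and other myeloid cells, and Ccl17 (-0.89 ± 0.22), with limma adjusted p of 0.00531 and 0.0213. With Mycl1 3 of the 9 were counted as lower and none as higher (median -1.34, beside 9.96% of all called). Ccl9 (-2.21 ± 0.40) and Cxcl16 (-1.34 ± 0.38) fell with limma adjusted p under 0.05, the lower being 0.00711. The third was Cxcl2 (-3.00 ± 0.85), given without a test for the reason below. With both vectors 3 were counted as lower and 1 rose, Cxcl15 (median -0.78, beside 29% of all called). Ccl9 (-2.82 ± 0.40) and Ccl17 (-0.999 ± 0.22) fell with limma adjusted p under 0.05, the lower being 0.000491. The third was again Cxcl2 (-2.63 ± 0.85), without a test. Ccl6, also made by myeloid cells, was 9.11 and 10.37 in control 3583T3 cells, 4.06 and 4.14 in control 3151T4 cells and 3.90 or lower on vector arrays. Ccl3 was 4.89 and 4.64 in control 3583T3 cells, 3.69 and 3.24 in control 3151T4 cells and 2.85 or lower on vector arrays. Cxcl2, a neutrophil chemokine like Cxcl1, was 8.16 and 3.12 on the control arrays of 3583T3 and 6.24 and 3.45 on those of 3151T4, so replicates differed by more than 2 log2 units. It was above log2 4 on 2 of the 4 control arrays and on no array with a Mycl1 vector, alone or with Nfib. Cxcl2 thus passed the filter through arrays without a Mycl1 vector only. Its falls with Mycl1 and with both vectors were fixed by the filter, and their sizes are not measured folds. Most of the macrophage markers given above fell in the same 3 comparisons, and their part was not tested.

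Of 23 chemokine receptors, 21 were on the array and only Cxcr4, Ccr1 and Ackr3 were above log2 4 on at least 2 arrays. The receptors of most of the chemokines above were dim: Cxcr2 read 1.32 to 2.58, Cxcr3 1.93 to 2.24, Ccr2 1.53 to 2.01, Ccr6 2.30 to 2.71 and Cx3cr1 2.74 to 4.04 over the 16 arrays. They were not tested. Cxcr4, the receptor of Cxcl12, was 6.68 and 6.83 in control 3583T3 cells, 4.90 and 3.72 with Nfib, 3.87 and 4.17 with Mycl1, and 3.37 and 4.56 with both. The 3151T4 values were 9.52 and 9.68, 6.70 and 7.02, 9.34 and 9.75, and 7.60 and 7.79 in the same order. All vector arrays of 3583T3 lay below control. In 3151T4 all arrays with an Nfib vector did too, while the Mycl1 arrays lay on both sides of the control arrays. Cxcr4 fell by 2.59 ± 0.49 on the log2 scale with Nfib (limma, adjusted p = 0.00372) and by 2.35 ± 0.49 with both (limma, adjusted p = 0.00391). The response to Mycl1 differed between the lines by 2.68 (limma, adjusted p = 0.023).

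Ccr1, a receptor of Ccl5 and Ccl3 on myeloid cells, was above log2 4 only on the control arrays of 3583T3, at 4.02 and 4.43, and is described without a test. It was 2.93 and 2.50 in control 3151T4 cells and 2.06 or lower on all vector arrays. Ackr3, the scavenging receptor of Cxcl12, passed in none of the 4 comparisons over both lines.

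Of 27 NF-kB and cytokine genes, 21 were tested, and with Nfib 3 rose and 2 fell (median 0.10), beside 8.46% of all probe sets called. Interleukin 6, Il6, was 4.41 and 4.76 in control 3583T3 cells and 7.92 and 7.21 with Nfib, and 4.98 and 4.03 in control 3151T4 cells and 8.88 and 6.19 with Nfib. It rose by 3.01 ± 0.65 (limma, adjusted p = 0.00966), and the Nfib arrays of each line lay above its control arrays. Vcam1, an adhesion molecule for leukocytes, rose by 1.46 ± 0.39 and Csf1, the macrophage growth factor, by 0.53 ± 0.15 (limma, adjusted p = 0.0302 and 0.0441). Without the 2 arrays 4 rose: Vcam1 missed the threshold at a difference of 1.49 ± 0.45 (limma, adjusted p = 0.0606), and Relb (0.96 ± 0.24) and Birc3 (0.67 ± 0.19) passed it (limma, adjusted p = 0.0283 and 0.0471). Ikbkg, a subunit of the kinase that activates NF-kB, fell (-0.75 ± 0.13, limma adjusted p = 0.00206). The other gene counted as lower was the NF-kB inhibitor Tnfaip3 (-0.88 ± 0.20), near the floor. Only the 2 control and 2 Mycl1 arrays of 3583T3 were above log2 4. Tnfaip3 thus passed the filter through arrays without an Nfib vector only. Its fall with Nfib was fixed by the filter and is given without a test.

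With Mycl1 1 of the 21 rose, the inhibitor Nfkbib (0.66 ± 0.16), and 1 fell, Csf1 (-0.61 ± 0.15), with limma adjusted p of 0.024 and 0.0273, beside 9.96% of all probe sets called. With both vectors none rose and 3 were counted as lower, beside 29% of all called. Ptgs2 (-0.99 ± 0.16), the prostaglandin synthase COX-2, and Ikbkg (-0.93 ± 0.13) fell with limma adjusted p under 0.05, the lower being 0.000462. The third was Tnfaip3 (-0.72 ± 0.20), whose fall was again fixed by the filter and is given without a test. Against Mycl1 cells, cells with both vectors had lower Ptgs2 (-0.72 ± 0.16) and Ikbkg (-0.52 ± 0.13), and Ccl17 of the chemokines was lower too (-0.89 ± 0.22). Without the 2 arrays these differences were of about the same size, -0.70 ± 0.18, -0.52 ± 0.15 and -0.94 ± 0.25, and missed the threshold (limma, adjusted p = 0.0642, 0.0801 and 0.0673).

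Of 20 interferon signalling genes, 16 entered the fit, and Irf7, an interferon-induced transcription factor, did so only through arrays with an Nfib vector and is described without a test. Of the other 15, 2 rose with Nfib and none fell (median 0.08), beside 8.46% of all probe sets called. Irf9, the DNA-binding subunit of the interferon response complex, rose by 1.90 ± 0.43 and the adaptor Sting1 by 0.79 ± 0.23 (limma, adjusted p = 0.0118 and 0.0452). Without the 2 arrays Irf9 remained called, at 1.87 ± 0.47 (limma, adjusted p = 0.0275), and Sting1 was at 0.65 ± 0.23 (limma, adjusted p = 0.118). With Mycl1 the kinase Jak2 fell (-0.45 ± 0.12, limma adjusted p = 0.034) beside 9.96% of all called, and with both vectors Jak2 (-0.53 ± 0.12) and the interferon gamma receptor Ifngr1 (-0.77 ± 0.28) fell (limma, adjusted p = 0.00658 and 0.0487), beside 29%. Irf7 was 2.54 and 2.38 in control 3583T3 cells, 4.00 and 5.32 with Nfib and 5.33 and 3.98 with both. In 3151T4 cells it was 2.97 and 3.15 in control, 4.93 and 4.41 with Nfib, and 2.59 and 2.57 with both, so the arrays with both vectors stood above control in 3583T3 and below it in 3151T4.

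**Figure D4:**
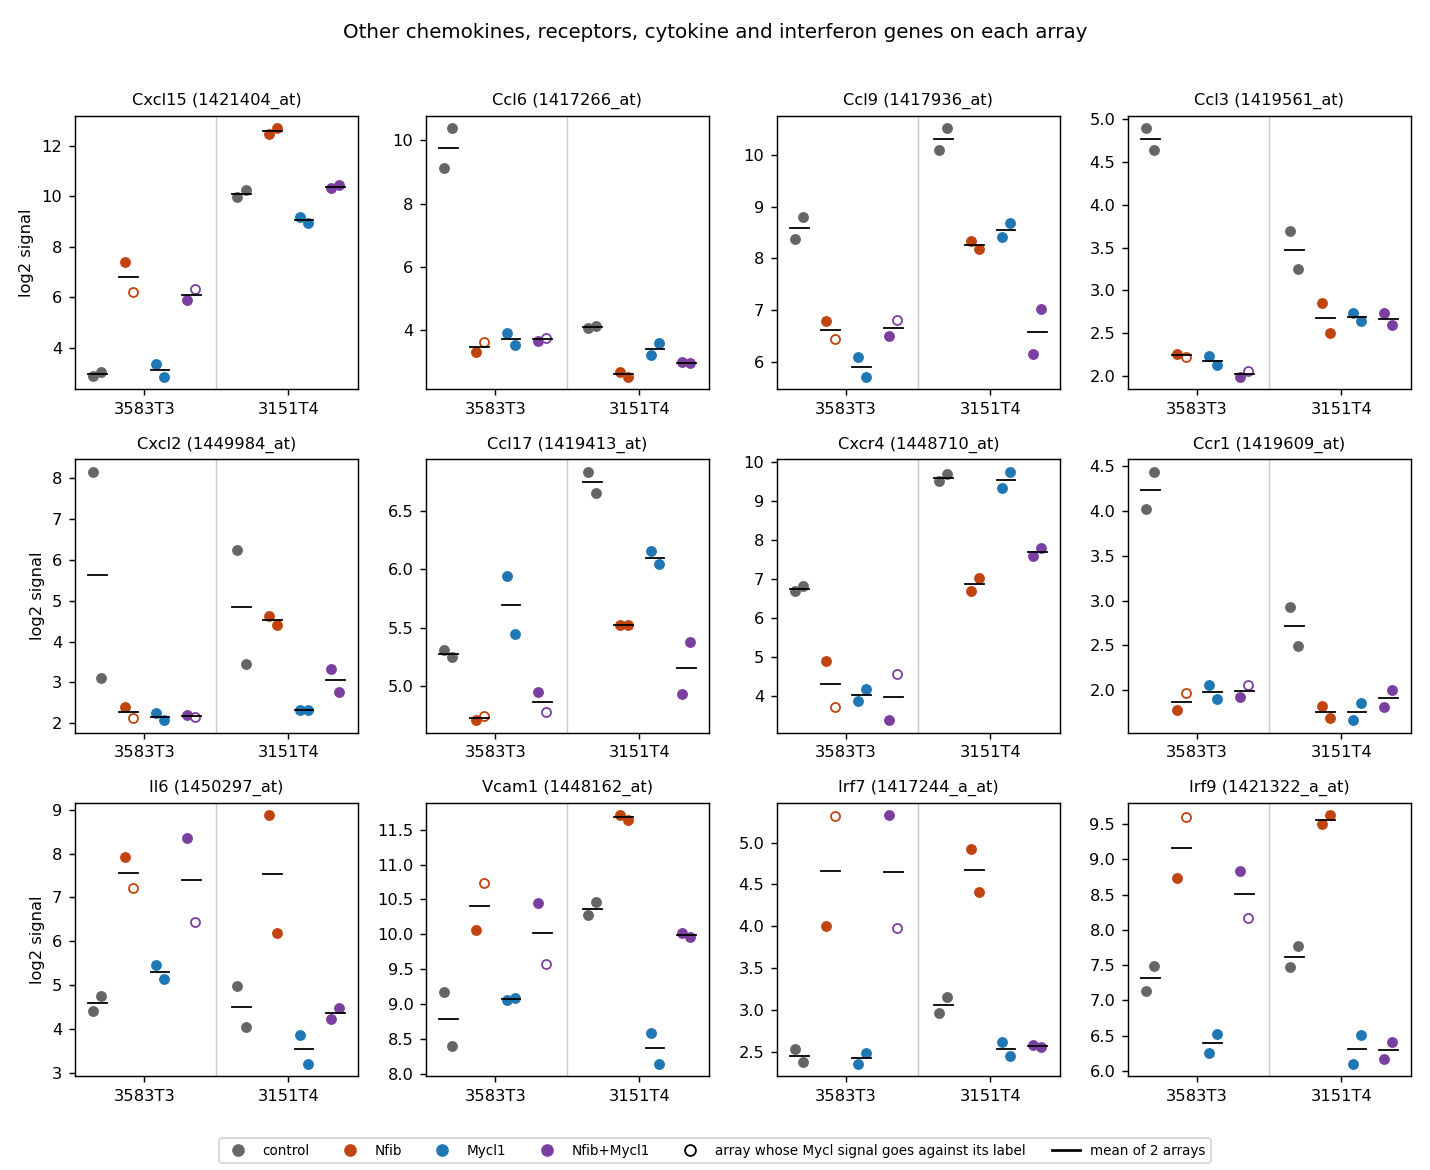
Log2 signal (vertical axis) of 12 other genes of the chemokine, receptor, cytokine and interferon lists on each of the 16 arrays, by line (horizontal axis) and vector (colour). Points are arrays, short lines are means of 2 arrays and open circles are the 2 arrays that go against their label. Cxcl15 and Il6 stand above the control arrays of their line on every array with Nfib alone, and Ccl6 is at 9.11 or higher only on the control arrays of 3583T3.

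Among the chemokines themselves, the pairs with the highest Pearson correlation over the 16 arrays were Cxcl1 with Cxcl5 (0.89), Cxcl5 with Ccl5 (0.82) and Cxcl1 with Ccl5 (0.81). Ccl7 reached 0.80 with both Ccl2 and Cxcl5, and the lowest pair was Cxcl10 with Ccl20 (-0.09). The genes outside the list with the pattern most like each member were Gbp6 (0.94) for Cxcl1, Saa3 (0.96) for Cxcl5, Lrp4 (0.96) for Cxcl10 and Fbxo4 (0.89) for Cxcl12. They were Tap1 (0.96) for Ccl5, Serpinb8 (0.96) for Ccl20 and Vamp2 (0.94) for Cx3cl1. The chemokine Cxcl14 came first for both Ccl2 (0.83) and Ccl7 (0.90), by a different probe set for each. The next for Cxcl1 were Gfra2 (0.93) and Ifit1 (0.92), and for Cxcl5 they were Eln (0.95) and the fibroblast marker Pdgfra (0.95). After the first came Tcf4 and Sulf2 for Cxcl10 (0.93 and 0.92), Tubb2a and Gch1 for Cxcl12 (both 0.84), and Adcy7 and Rab32 for Ccl2 (0.80 and 0.79). For Ccl5 they were Gfra2 and Sema5a (0.94 and 0.93), for Ccl7 Rora and Cp (both 0.90), for Ccl20 Lipa and Decr1 (0.93 and 0.91), and for Cx3cl1 Siae and Wipi1 (both 0.93). The 16 arrays share lines, vectors and normalization, so these correlations are a description of the pattern only.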

How the data were processed

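RNA of the 16 samples was hybridised to 1-colour Affymetrix arrays. The deposited values are log2 signals per probe set, which the authors made with GCRMA (version 2.20.0) under R (version 2.11.0), as their processing notes name. The log2 scale was read from the range of the values. Genes come from the platform's annotation: 20380 probe sets have 1 symbol, 691 several and 1555 none.

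The fit was made in limma (3.58.1, R version 4.3.3), with a mean-variance trend, over 15799 probe sets above log2 4 on at least 2 arrays and p-values adjusted by Benjamini-Hochberg over all of them. Contrasts over both lines used vector and line as terms (11 residual degrees of freedom), and those within and between lines used 8 group means (8 residual degrees of freedom). Arrays have no count depth, and their number limits the precision. The fit was tested on simulated data.

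Members and lists (other chemokines, chemokine receptors, NF-kB pathway and inflammatory cytokines, interferon signalling, and 6 marker lists) were chosen with earlier results of these data known. Named genes are all members, up to 3 called genes with the largest rise and 3 with the largest fall per list and comparison over both lines by the brightest probe set, and the genes most correlated with each member. Genes above log2 4 on the arrays of 1 side only are described without a test. Dim receptors, Ackr3, Relb, Birc3 and line-response differences were named after their values were seen. Alternatives tried were other filters, 1 probe set per gene, a second quantile normalization, median centring, no trend, array weights, a replicate block, leaving out each array, and, chosen after seeing the data, leaving out the 2 arrays whose Mycl signal goes against the label.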

Additional observations from a re-analysis of the deposited data

Results flagged for a closer look

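The values below are the response to a vector in 3151T4 minus that in 3583T3, on the log2 scale. They come from the interaction term of the limma fit, for genes with an adjusted p under 0.05 there. The 9 chemokines are given as a description and not as a test. Of the 9 chemokines, whose contrasts count as used in choosing them, the difference with Nfib was 3.07 for Cxcl5, 2.32 for Ccl7 and 3.68 for Ccl20. With both vectors it was -1.99 and -1.29 for the probe sets 1415803_at and 1415804_at of Cx3cl1.

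Of the other chemokines and receptors, the difference with Mycl1 was 2.68 for Cxcr4. With both vectors it was -1.78 for Ccl9, -1.18 for Ccl17, -2.87 for Cxcl15 and -2.22 for Cxcl16. Pf4 was above log2 4 only on the control arrays of 3583T3 and the Nfib arrays of 3151T4. Both enter its difference with Nfib with a plus sign, so that sign was fixed by the filter. The control arrays of 3583T3 do so with Mycl1 and with both vectors too. Its differences were 5.42 with Nfib, 2.26 with Mycl1 and 2.42 with both, given without a test. Other genes passed the filter through 1 side only, and their values restate which arrays were high: Ccl6 was above log2 4 on control arrays only, Ccl3 and Ccr1 on those of 3583T3 only, and Ppbp on the Nfib arrays of 3151T4 only. Their differences were 4.78, 5.34 and 4.90 for Ccl6 with Nfib, Mycl1 and both, 1.74, 1.81 and 1.95 for Ccl3, 1.40, 1.29 and 1.43 for Ccr1, and 2.15 for Ppbp with Nfib. Most arrays of Pf4 and the control arrays of Cxcl15 in 3583T3 lay below log2 4 too, so the sizes for these genes are not measured folds. Control 3583T3 cells held more of the macrophage markers than control 3151T4 cells, with list means of 6.91 and 7.69 against 5.71 and 5.78, and the part of that in these differences was not tested.

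Of the NF-kB and interferon genes, the difference with Mycl1 was -2.29 for Vcam1. With both vectors it was -1.61 for Vcam1, -1.53 for Traf1, -2.14 for Nfkbie, -2.67 for Irf7, which was above log2 4 only on arrays with an Nfib vector, and -2.52 for Irf9.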

How the results depend on the processing

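Counts of called probe sets rested on few arrays. No called difference changed sign under the alternatives run, but chemokine differences that were not called did, in 6 of 154 refits without the 2 arrays whose Mycl signal goes against the label, 66 of 2464 that left out 1 array and 12 of 1176 others. Without the 2 arrays, those with both vectors in 3583T3 went from -0.28 to 0.89 for Ccl2 and from -0.06 to 0.72 for Ccl7, and that of Cxcl10 with Nfib over both lines from 0.23 to -0.26. This setting moved 22 of the 154 chemokine differences by more than the spread between arrays. In it, which leaves 1 array in each of 2 groups, assumed to vary like the others, the chemokine count went from 1 to 2 with both vectors over both lines, beside 32.7% of all probe sets called. It went from 2 to 5 with Mycl1 (beside 9.1%) and from 2 to 5 with both (17.5%) in 3583T3, from 1 to 5 (21.2%) and from 2 to 4 (32.1%) in 3151T4, and from 0 to 1 (2.9%) and from 2 to 4 (6.91%) for the line responses to Mycl1 and to both. Other pathway genes called for both vectors against Mycl1, in counts that hold those that passed the filter through 1 side too, went from 4 to 1. That alternative also moved the count over all probe sets with Mycl1 from 1574 to 2770 over both lines and from 378 to 1438 in 3583T3, and with both vectors in 3583T3 from 1754 to 2764. The cause was not tested.

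The labels do not say whether same-numbered arrays of a line are paired, and their deviations correlated between -0.72 and 0.29 over all probe sets. The value of -0.72 was between Nfib and Nfib+Mycl1 in 3583T3, the groups that hold the 2 arrays whose Mycl signal goes against the label. The next lowest was -0.44, between control and Mycl1 in 3583T3. For Cxcl1 the lower-numbered array was the higher in 8 of 8 groups, and the SE of its difference with Nfib was 0.52 without and 0.44 with the replicate block. With the replicate block, 1 chemokine probe set in place of 4 was called with Mycl1 over both lines, 2 in place of 1 with Mycl1 in 3151T4, 4 in place of 9 pathway genes with Mycl1 and 2 in place of 4 for both vectors against Mycl1, and all probe sets with Mycl1 went to 556. No filter left 2 of the 4 with Mycl1 over both lines. The filter at log2 6 left 0 with both vectors over both lines, and 1 in 3151T4 and 1 for the line response. With 1 probe set per gene, which tests fewer, 1 was called for both against Mycl1, 1 with Mycl1 in 3583T3, 1 with both in 3151T4, 1 for the line response to both and 2 between control lines. A second quantile normalization and median centring each gave 2 with Mycl1 in 3151T4 and 1 for the line response to Mycl1. Array weights gave 4 with Nfib and 4 with both in 3583T3, 2 with Mycl1 in 3151T4, 24 in place of 15 pathway genes with Nfib, and 2803 and 3267 probe sets in all with Nfib and Mycl1. Most counts of this paragraph stand without the share of all probe sets called in their setting. A change in these genes can therefore not be told from a change in calling over all probe sets, and nothing is read from them.

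Leaving out each array in turn left 3 with Nfib over both lines, beside 5.05% to 10.1% of all. It gave 1 to 4 with Mycl1 (1.41% to 14.5% of all; 1 without any control or Mycl1 array of either line), 0 to 2 with both vectors (17.7% to 31.7%; 0 without 3583T3 control replicate 1 or 2, 3583T3 Nfib+Mycl1 replicate 1 or 3151T4 control replicate 4) and 1 to 4 for both against Mycl1 (0.949% to 5.01%). In 3583T3 it gave 1 to 4 with Nfib (4.23% to 12.8%), 0 to 5 with Mycl1 (1.01% to 4.45%) and 0 to 4 with both (3.82% to 13.3%), the lowest of each without control replicate 2. In 3151T4 it gave 3 to 5 with Nfib (6.16% to 13.1%), 1 to 2 with Mycl1 (4.06% to 17.5%) and 1 to 3 with both (10.2% to 31.3%). For the line responses it gave 0 to 3 with Nfib (3.22% to 7.93%; 0 without 3151T4 Nfib replicate 3), 0 to 1 with Mycl1 (0.658% to 1.88%) and 1 to 3 with both (2.91% to 5.98%), and between control lines 3 to 4 (27.6% to 42.2%). Pathway genes called were 10 to 18 with Nfib, 3 to 11 with Mycl1 (3 without 3151T4 Mycl1 replicate 4), 10 to 14 with both and 0 to 5 for both against Mycl1 (0 without 3583T3 Mycl1 replicate 2 or Nfib+Mycl1 replicate 1). These counts stand beside the shares of all probe sets given above for the same comparisons over both lines. Of 656 such refits of called pathway differences, 117 lost the call, and of 319 under the other settings 24 did. Signal over background limits Cxcl5, Ccl5, Ccl7, Cxcl15, Cxcl2, Irf7 and Tnfaip3, whose lowest groups lie near the floor of the array.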

Other observations

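Cxcl14, a chemokine of epithelium and stroma, was named for its likeness to Ccl2 and Ccl7. Its values ran from 2.65 to 9.13, and it was 9.01 and 9.13 on the Nfib arrays of 3151T4, against 5.40 and 5.44 in control cells, 3.47 and 3.28 with Mycl1, and 4.31 and 4.81 with both. In 3583T3 it was 4.55 and 4.92 in control cells, 2.65 and 6.03 with Nfib, 2.65 and 2.91 with Mycl1, and 5.30 and 2.78 with both. The high values of 3583T3 with a vector are on the array labelled Nfib replicate 2 and on Nfib+Mycl1 replicate 1, as for Cxcl10.

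The platelet chemokines Pf4 and Ppbp read above the control arrays of 3151T4 on its Nfib arrays. Pf4 was 3.35 and 3.41 in control 3151T4 cells and 5.35 and 5.89 with Nfib, and Ppbp was 3.21 and 3.04 and then 5.14 and 5.53. In 3583T3 Pf4 was 5.27 and 5.90 in control cells and 2.31 to 2.67 on all vector arrays.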
